A study of Mus musculus with 8 samples.

Results

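The mitosis and spindle genes described here are 42 mouse genes chosen by name for their roles in cell division: the kinases and cyclins that start mitosis, the motor and binding proteins of the spindle, the kinetochore, the chromosome scaffold and the machinery of cytokinesis. Among the probe sets that name a gene alone, the brightest by mean signal stood for it. Such a probe set was found for 41 of the 42 genes, and Ccnb1, which encodes cyclin B1, was not analysed here. All 41 lay above the limit for dim probe sets, among 11798 genes tested in all.

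The study set B cells of Irf4 null mice (genotype irf4-/-, 4 arrays) against B cells of wild-type mice (irf4+/+, 4 arrays). All animals were C57BL/6 littermates aged 12 weeks. Mature B cells were enriched from the mononuclear cells of the spleen by binding other cells to magnetic beads and removing them, and 6 µg of RNA was labelled for 1 Affymetrix array per sample. The sources used here do not give the way in which Irf4 was inactivated, the sex of the mice or any stimulation of the cells. Nor do the labels say that every array is a separate animal, and p-values therefore reflect only how these samples spread, which may be technical.

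A cell enters mitosis when cyclin-dependent kinase 1, bound to a mitotic cyclin, is activated, and it leaves mitosis when the anaphase-promoting complex marks cyclins and other substrates for degradation. Between these points the spindle captures chromosomes at their kinetochores, motors of the kinesin family move and sort microtubules, and an actin ring divides the cell. Transcripts of these genes accumulate together late in the cell cycle, and resting B cells hold little of them, whereas dividing B cells, such as those of germinal centres, and dividing precursors of blood cells hold much. Irf4 encodes a lymphocyte transcription factor needed for plasma cell formation.

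Signals are linear MAS5 intensities in arbitrary units. A log2 fold change is the Irf4 null mean of log2(signal + 16) minus the wild-type mean, and a gene is called when its p, adjusted over the 27022 probe sets tested, is under 0.05. Irf4 itself had signals of 285, 259, 244 and 315 on Irf4 null arrays 1 to 4, against 2035, 1720, 1779 and 2341 on wild-type arrays 1 to 4 (log2 fold change -2.76 ± 0.12, SE; adjusted p = 4.61e-06 by limma). Xist, the noncoding RNA of X inactivation, had a signal of 17770 on Irf4 null array 1 and of 17120, 18090 and 19650 on wild-type arrays 1, 3 and 4, which are called Xist-high below. It had 94.8, 49.2 and 78.7 on Irf4 null arrays 2, 3 and 4 and 71.2 on wild-type array 2, which are called Xist-low. The Y-linked gene Eif2s3y had 3216 to 4530 on the 3 Xist-low Irf4 null arrays and 3512 on wild-type array 2, and at most 25.4 on any Xist-high array. The 2 Xist classes are read from the data and are not groups of the study. They lie unevenly across the genotypes, with 1 of 4 Irf4 null and 3 of 4 wild-type arrays being Xist-high. Mature B cell markers were bright on all arrays, with summed signals over 7 genes of 70900 to 77290 in Irf4 null and 68970 to 81580 in wild type. Markers of other blood cells were also present on all arrays, at levels given beside the results. The number of arrays limits the precision, and correlations between arrays lay between 0.960 and 0.982.

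Because most members moved together over the arrays, their promoters were searched for short sequence elements that are common in genes of late cell cycle: TTTGAA, the core of the cell cycle genes homology region, its variant TTTAAA, and the CCAAT box, bound by NF-Y. Each was counted on both strands from 250 bases before to 50 bases after the annotated start, in RefSeq sequence of GRCm38.p6, which holds a promoter for 36 of the 42 genes. TTTGAA was found in 26 of the 36 promoters (72.2%), beside 20.2% of promoters of all genes. CCAAT was found in 27 (75%), beside 41.1%, and both elements together in 22 (61.1%), beside 8.97%. TTTAAA was found in 9 (25%), beside 14.9%. A match describes these letters and is not evidence of a bound factor.

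The 250 bases before the start are shown for 5 genes: Nusap1 as the gene called between genotypes, Ube2c as the one with the largest fold change, Cdk1 and Ccnb2 as the mitotic kinase and a cyclin partner, and Cenpa as the gene with the smallest fold change. Capitals mark TTTGAA (or TTCAAA on the opposite strand) and CCAAT (or ATTGG), and each sequence reads 5′ to 3′ towards its gene.
Nusap1, chr2:119618048-119618297, plus strand: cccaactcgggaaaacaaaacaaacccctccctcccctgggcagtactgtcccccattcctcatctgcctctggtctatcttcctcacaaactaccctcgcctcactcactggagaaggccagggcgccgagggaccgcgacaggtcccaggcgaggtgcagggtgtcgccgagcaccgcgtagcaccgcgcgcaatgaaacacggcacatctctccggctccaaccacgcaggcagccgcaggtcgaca
Ube2c, chr2:164769679-164769928, plus strand: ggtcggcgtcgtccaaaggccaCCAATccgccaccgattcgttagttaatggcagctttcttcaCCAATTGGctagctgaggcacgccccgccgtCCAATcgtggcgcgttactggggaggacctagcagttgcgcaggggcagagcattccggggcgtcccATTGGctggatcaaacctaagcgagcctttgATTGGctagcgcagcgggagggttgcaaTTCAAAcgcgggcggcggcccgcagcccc
Cdk1, chr10:69352913-69353162, minus strand: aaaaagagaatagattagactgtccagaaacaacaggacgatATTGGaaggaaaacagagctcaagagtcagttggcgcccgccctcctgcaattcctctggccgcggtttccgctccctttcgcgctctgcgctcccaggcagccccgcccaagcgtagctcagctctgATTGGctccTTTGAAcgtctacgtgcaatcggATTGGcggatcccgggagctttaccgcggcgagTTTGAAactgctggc
Ccnb2, chr9:70421555-70421804, minus strand: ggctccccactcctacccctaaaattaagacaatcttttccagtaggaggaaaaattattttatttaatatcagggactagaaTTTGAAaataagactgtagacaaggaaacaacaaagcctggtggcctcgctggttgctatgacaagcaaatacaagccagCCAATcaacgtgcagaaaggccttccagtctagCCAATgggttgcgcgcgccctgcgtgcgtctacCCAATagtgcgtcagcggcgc
Cenpa, chr5:30666636-30666885, plus strand: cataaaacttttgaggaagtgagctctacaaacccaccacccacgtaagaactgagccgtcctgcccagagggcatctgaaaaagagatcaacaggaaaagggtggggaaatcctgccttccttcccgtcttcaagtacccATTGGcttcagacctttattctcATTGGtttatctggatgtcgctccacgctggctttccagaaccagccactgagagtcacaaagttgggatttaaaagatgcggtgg

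The window of Nusap1 holds none of these letters, that of Ube2c holds 1 TTTGAA and 6 CCAAT matches, some of which overlap on opposite strands, and that of Cdk1 holds 2 and 3. Ccnb2 has 1 and 3, and Cenpa has 2 CCAAT matches and no TTTGAA before its start. The median log2 fold change between genotypes was 0.69 for the 26 tested members with TTTGAA and 0.835 for the 9 without it, and it was 0.74 for the 26 with CCAAT and 0.72 for the 9 without it. These medians are a description, and no test was made of them.

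Most mitosis and spindle genes had higher mean signals in Irf4 null than in wild-type B cells, but 1 of the 41 passed the test. That gene was Nusap1, which encodes a protein that binds and bundles spindle microtubules near chromosomes. No member was called lower. Over all probe sets tested, 2.01% were called higher in Irf4 null and 1.51% lower, and 1 call among 41 genes is a share near that background. The median log2 fold change of the members was 0.73, beside 0.025 over all genes tested, and 40 of the 41 fold changes were positive. An unadjusted p under 0.05 was reached by 30 of the 41 members, beside 20.4% of all genes. The standard errors of the members' fold changes lay between 0.09 and 0.41.

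Nusap1 had signals of 991, 1483, 1553 and 1461 on Irf4 null arrays 1 to 4, against 468, 1096, 462 and 572 on wild-type arrays 1 to 4. Wild-type array 2 lay above Irf4 null array 1, so the genotypes overlapped by this pair of arrays. The means were 1372 ± 257 in Irf4 null and 649 ± 302 in wild type (SD, n = 4 arrays each), with a log2 fold change of 1.13 ± 0.25 (SE; adjusted p = 0.0337 by limma). Another, dimmer probe set of Nusap1 gave a log2 fold change of -0.095. Over 26 alternative settings the log2 fold change ranged from 0.45 to 1.41 and the adjusted p from 0.000409 to 0.297 (limma), and the call was lost in 12 of them.

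The members moved together over the arrays, and the arrays did not sort by genotype alone. Each member's level was taken as log2(signal + 16) minus its wild-type mean. Averaged over the 41 genes, this level was 0.20, 0.89, 0.92 and 0.81 on Irf4 null arrays 1 to 4 and -0.36, 0.72, -0.30 and -0.06 on wild-type arrays 1 to 4. Wild-type array 2 stood beside Irf4 null arrays 2 to 4, and Irf4 null array 1 lay between those and the other wild-type arrays. Wild-type array 2 was the highest of its genotype for 38 of 41 members, a pattern held by 31.8% of all genes. Irf4 null array 1 was the lowest of its genotype for 39 of 41, beside 25.4% of all genes. The genotypes did not overlap for 1 member, Dlgap5, where 7.13% of all genes lay higher on every Irf4 null array than on any wild-type array and 5.71% lay lower.

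**Figure D1:**
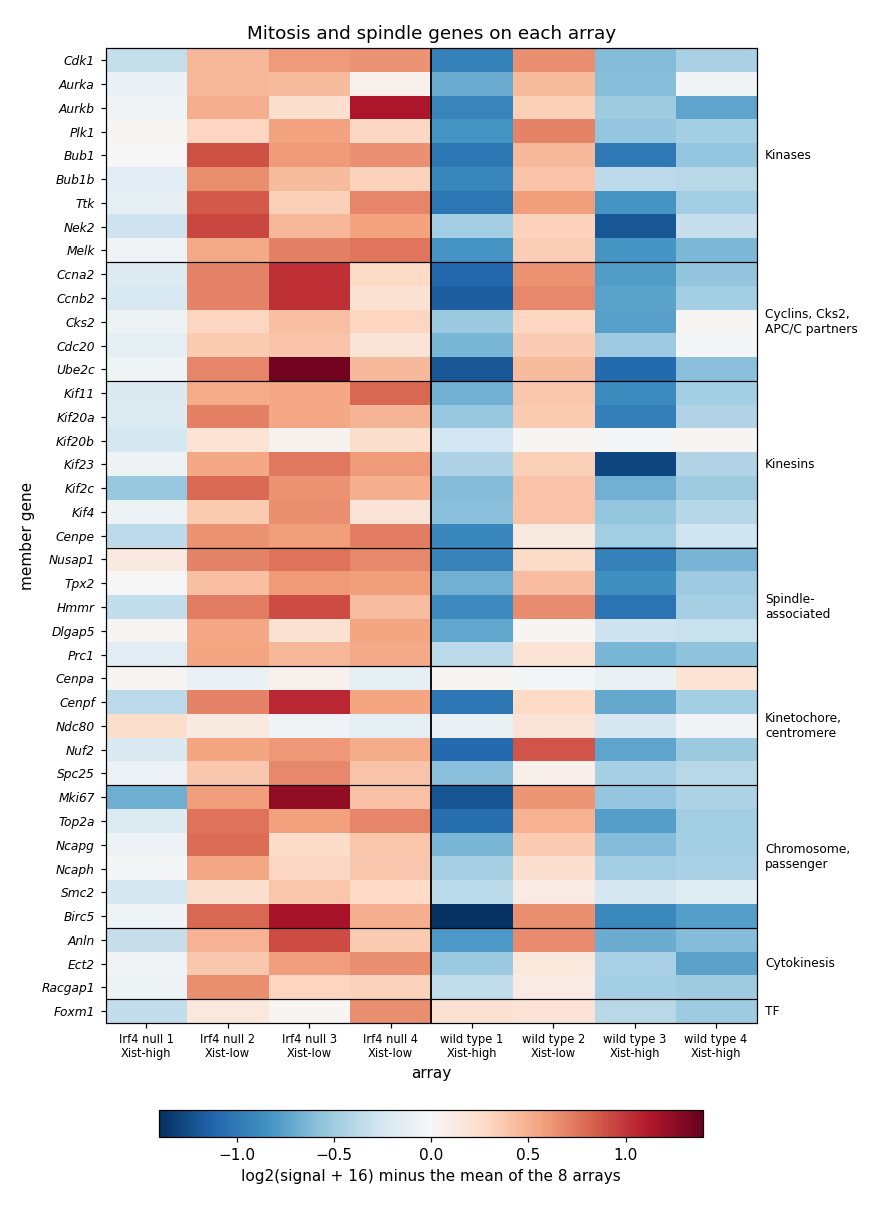
Level of each of the 41 mitosis and spindle genes (rows, grouped by role) on each of the 8 arrays (columns, Irf4 null left of the black line and wild type right of it), as log2(signal + 16) minus the gene's mean over the 8 arrays; red is above and blue below that mean. Irf4 null arrays 2 to 4 and wild-type array 2 are red in most rows, while Cenpa, Ndc80 and Kif20b stay pale throughout.

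Among the 9 mitotic kinases none passed the test between genotypes and 6 had an unadjusted p under 0.05 (limma). Their log2 fold changes lay between 0.44 for Aurka, the kinase of spindle poles, and 1.06 for Bub1. Bub1, a kinase of the spindle checkpoint that sits at kinetochores, had signals of 400, 761, 617 and 636 in Irf4 null, against 191, 556, 193 and 272 in wild type. Wild-type array 2 exceeded Irf4 null array 1, and the other wild-type arrays lay below every Irf4 null array. The log2 fold change was 1.06 ± 0.31 (SE; limma, adjusted p = 0.0941). Melk, a kinase that peaks in mitosis, had 129, 201, 229 and 235 in Irf4 null, against 68.5, 174, 68.6 and 81.0 in wild type. It showed the same single crossing, with a log2 fold change of 0.97 ± 0.28 (SE; adjusted p = 0.0941 by limma).

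Cdk1, the kinase at the centre of mitotic entry, had signals of 444, 783, 862 and 884 in Irf4 null, against 286, 892, 365 and 406 in wild type. Here wild-type array 2 was the highest of all 8 arrays. The log2 fold change was 0.68 ± 0.32 (SE; limma, adjusted p = 0.31). Aurkb, the kinase of the chromosomal passenger complex, had a log2 fold change of 0.92, and Ttk, the checkpoint kinase also called Mps1, had 0.87. Nek2, which acts in the splitting of centrosomes, had 0.835. Bub1b, the checkpoint pseudokinase BubR1, had 0.63, and Plk1, which acts at centrosomes, kinetochores and the midbody, had 0.58.

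The 5 cyclins, cyclin-dependent kinase subunits and partners of the anaphase-promoting complex held the largest fold change of all members and no call, with 4 at an unadjusted p under 0.05 (limma). Ube2c, the ubiquitin-conjugating enzyme that works with that complex, had signals of 787, 1335, 2117 and 1136 in Irf4 null, against 350, 1127, 378 and 544 in wild type. Irf4 null array 3 stood well above the others, and wild-type array 2 lay within the Irf4 null range. The log2 fold change was 1.21 ± 0.36 (SE; limma, adjusted p = 0.102). Ccna2, cyclin A2, had 671, 1244, 1565 and 933 in Irf4 null, against 349, 1187, 439 and 517 in wild type. Its log2 fold change was 0.90 ± 0.35 (SE; limma, adjusted p = 0.207), with wild-type array 2 above Irf4 null arrays 1 and 4. Ccnb2, cyclin B2, had a log2 fold change of 0.855 ± 0.36. Cks2, the small subunit that binds cyclin-dependent kinases, had 0.48 ± 0.21, and Cdc20, an activator of the anaphase-promoting complex, had 0.41 ± 0.20.

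None of the 7 kinesins passed the test between genotypes, and 6 had an unadjusted p under 0.05 (limma). Kif23, which bundles microtubules of the central spindle, had signals of 386, 596, 688 and 623 in Irf4 null, against 296, 516, 157 and 300 in wild type. Wild-type array 2 lay above Irf4 null array 1 and below the other 3, and wild-type array 3 was the lowest. The log2 fold change was 0.90 ± 0.29 (SE; limma, adjusted p = 0.133). Kif11, the motor that pushes spindle poles apart, had 257, 434, 440 and 532 in Irf4 null, against 180, 390, 153 and 209 in wild type. Again wild-type array 2 alone passed Irf4 null array 1, and the log2 fold change was 0.835 ± 0.28 (SE; limma, adjusted p = 0.145). Cenpe, which carries chromosomes towards the spindle equator, and Kif20a, a motor of late mitosis, had log2 fold changes of 0.78 and 0.77. Kif2c, which shortens microtubules at centromeres, had 0.69, and the chromosome-arm kinesin Kif4 had 0.56. Kif20b, a kinesin of cytokinesis, stood apart with 560, 768, 695 and 796 in Irf4 null, against 554, 677, 662 and 682 in wild type. Its lowest values were those of array 1 in both genotypes, and the log2 fold change was 0.12 ± 0.13 (SE; limma, adjusted p = 0.695).

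The 5 spindle-associated proteins include Nusap1, and all 5 had an unadjusted p under 0.05 (limma). Dlgap5, also called HURP, which stabilises microtubules near chromosomes, had signals of 188, 276, 218 and 279 in Irf4 null, against 105, 187, 149 and 147 in wild type. It was the sole member without overlap, by the margin of 188.4 on Irf4 null array 1 over 187.1 on wild-type array 2. Its log2 fold change was 0.66 ± 0.19 (SE; limma, adjusted p = 0.0922). Hmmr, a microtubule-binding protein of spindle poles, had a log2 fold change of 0.86, Tpx2, which activates Aurka on the spindle, had 0.80, and Prc1, which bundles antiparallel microtubules, had 0.695. These 3 had adjusted p-values of 0.253, 0.134 and 0.106 (limma).

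The 5 kinetochore and centromere genes differed among themselves, and 2 had an unadjusted p under 0.05 (limma). Spc25, a subunit of the Ndc80 complex that holds microtubules, had signals of 397, 554, 678 and 558 in Irf4 null, against 276, 442, 301 and 319 in wild type. Its log2 fold change was 0.68 ± 0.18 (SE; limma, adjusted p = 0.0683), and wild-type array 2 again lay above Irf4 null array 1. Cenpf, a large protein of the outer kinetochore, had 186, 409, 530 and 369 in Irf4 null, against 115, 303, 144 and 174 in wild type. Here too wild-type array 2 alone lay above Irf4 null array 1, and the log2 fold change was 0.96 ± 0.32 (SE; limma, adjusted p = 0.15). Nuf2, another subunit of the Ndc80 complex, had a log2 fold change of 0.73 ± 0.365.

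Cenpa and Ndc80 varied little between arrays. Cenpa, the histone variant that marks centromeres, had signals of 1699, 1561, 1733 and 1526 in Irf4 null, against 1693, 1647, 1554 and 1904 in wild type. The genotypes overlapped throughout and the fold change was the smallest and the sole negative one of the list, at -0.06 ± 0.09 on the log2 scale (SE; limma, adjusted p = 0.796). Ndc80, the subunit that names its complex, had 392, 358, 316 and 298 in Irf4 null, against 304, 373, 275 and 315 in wild type. Irf4 null array 1 was the highest of the 8 and the genotypes overlapped, with a log2 fold change of 0.10 ± 0.13 (SE; adjusted p = 0.763 by limma). A difference between Ndc80 and its partners Nuf2 and Spc25 was not tested.

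Of the 6 genes of chromosome structure and the passenger complex, none was called and 5 had an unadjusted p under 0.05 (limma). Birc5, or survivin, a subunit of the passenger complex, had signals of 706, 1300, 1666 and 1054 in Irf4 null, against 273, 1167, 388 and 424 in wild type. Wild-type array 2 lay above Irf4 null arrays 1 and 4. The log2 fold change of 1.203 ± 0.385 (SE; adjusted p = 0.127 by limma) was next in size to that of Ube2c. Ncaph, a condensin subunit, had 861, 1291, 1076 and 1147 in Irf4 null, against 633, 1034, 623 and 638 in wild type (log2 fold change 0.59 ± 0.17, SE; adjusted p = 0.1 by limma). In wild type, 3 arrays of Ncaph lay close together and array 2 stood far above them. Mki67, the proliferation antigen that coats mitotic chromosomes, had 1133, 2742, 4347 and 2440 in Irf4 null, against 782, 2814, 1250 and 1347 in wild type. Irf4 null array 1 lay below 3 of the 4 wild-type arrays, and the log2 fold change was 0.78 ± 0.41 (SE; limma, adjusted p = 0.377), with the widest error of the list. Top2a, the topoisomerase that untangles sister chromatids, had a log2 fold change of 0.91, and the condensin subunits Ncapg and Smc2 had 0.68 and 0.335.

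The 3 cytokinesis genes had no call, and 2 had an unadjusted p under 0.05 (limma). Ect2, which activates RhoA at the division plane, had signals of 346, 470, 545 and 570 in Irf4 null, against 244, 399, 258 and 206 in wild type, with wild-type array 2 between Irf4 null arrays 1 and 2. Its log2 fold change was 0.78 ± 0.21 (SE; limma, adjusted p = 0.0683). Racgap1, the partner of Kif23 at the central spindle, had 282, 476, 370 and 375 in Irf4 null, against 230, 323, 209 and 205 in wild type. It showed 1 crossing, of wild-type array 2 over Irf4 null array 1, and a log2 fold change of 0.605 ± 0.18 (SE; adjusted p = 0.108 by limma). Anln, a scaffold of the contractile ring, had a log2 fold change of 0.72 ± 0.33. Foxm1, the transcription factor that drives many of these genes, had 102, 150, 137 and 218 in Irf4 null, against 157, 155, 98.5 and 89.6 in wild type. Its arrays mixed across genotypes, with a log2 fold change of 0.24 ± 0.245 (SE; adjusted p = 0.684 by limma).

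**Figure D2:**
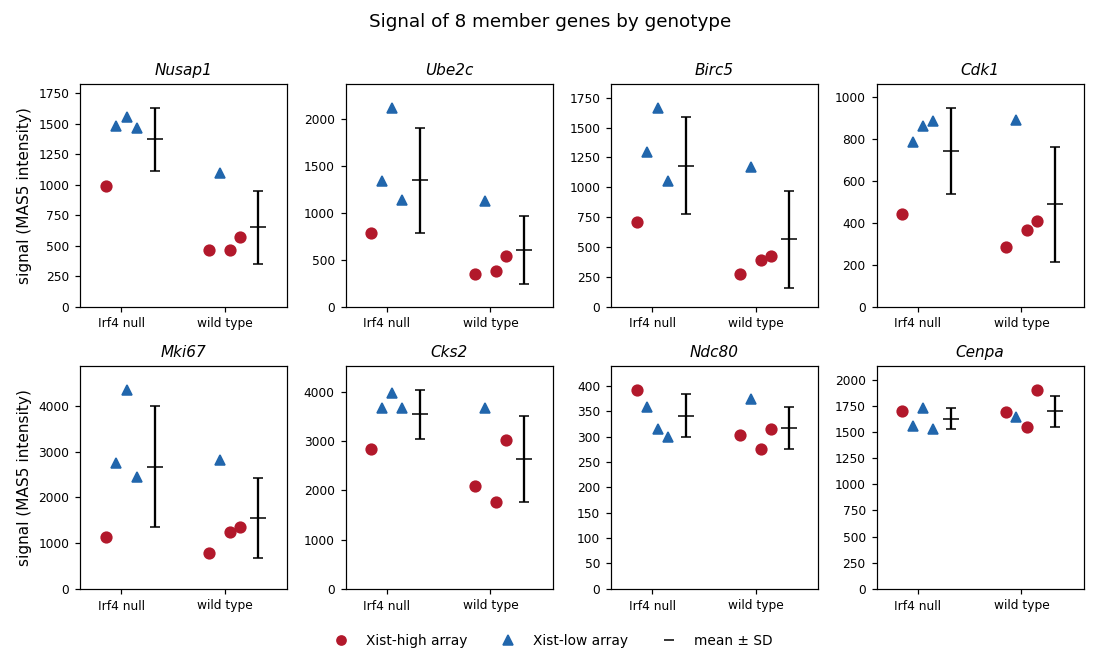
Signal (MAS5 intensity, linear axis from 0) of 8 mitosis and spindle genes on each array, with Irf4 null left of wild type; each point is 1 array, red circles are Xist-high and blue triangles Xist-low arrays, and the bars show mean ± SD of 4 arrays. In Nusap1, Ube2c, Birc5, Cdk1, Mki67 and Cks2 the single Xist-low wild-type array lies beside or near the Irf4 null triangles, while in Ndc80 and Cenpa the points of both genotypes mix.

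Other probe sets of the same genes gave mostly positive values too, over a wider range. Several single-gene probe sets exist for 29 members, and 35 of their 53 other probe sets lay above the limit for dim signals. Their median log2 fold change was 0.58, with 29 positive and 6 negative values, and 0 were called by limma, with 20 at an unadjusted p under 0.05. The 6 negative values belonged to Nek2, Nusap1, Tpx2, Cenpa and, with a pair of probe sets, Kif20b. The lowest, -0.57, was that of a dimmer probe set of Nek2, whose chosen probe set gave 0.835 and another 0.93.

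Since the Xist classes lie unevenly across genotypes, genotype and Xist class were fitted together. In that fit the members differed more by Xist class than by genotype in 39 of 41 cases. The share of all genes with this pattern was not counted. Xist-high arrays had lower levels, with a median log2 difference of -0.85 (Xist-high minus Xist-low) beside 0.01 over all genes, and 26 of 41 members passed the test as lower and none as higher. Over all probe sets 1.86% were called lower and 0.207% higher in that comparison. The median log2 difference between Irf4 null and wild type in the same fit was 0.33, beside 0.02 over all genes, and Nusap1 was the sole member called (0.71 ± 0.13; SE; limma, adjusted p = 0.0184), beside 1.41% of probe sets called higher and 0.947% lower.

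The calls by Xist class were spread over the roles: 5 of 9 kinases, 3 of 5 cyclins and partners, 4 of 7 kinesins, 4 of 5 spindle-associated proteins, 2 of 5 kinetochore genes, 6 of 6 genes of chromosome structure and 2 of 3 cytokinesis genes. Mki67 had signals of 1133, 782, 1250 and 1347 on the Xist-high arrays, against 2742, 4347, 2440 and 2814 on the Xist-low arrays. The classes did not overlap, and the difference was the widest of the members at -1.39 ± 0.225 on the log2 scale (SE; limma, adjusted p = 0.0105). Kif2c had 184, 175, 166 and 189 on the Xist-high arrays, against 484, 430, 395 and 365 on the Xist-low arrays, a log2 difference of -1.08 ± 0.14 (SE; limma, adjusted p = 0.0039). Its Xist-high values lay close together and the classes did not overlap. Cdk1 differed by -1.11 ± 0.15 (SE; limma, adjusted p = 0.00459) and Top2a by -1.06 ± 0.14 (SE; limma, adjusted p = 0.00469).

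In all, 36 of 41 members were lower on each of the 4 Xist-high arrays than on any Xist-low array, a pattern held by 7.47% of all genes, and no member showed the reverse, held by 4.69%. The 5 members that overlapped were Kif20b, Dlgap5, Cenpa, Ndc80 and Foxm1. Cenpa differed by 0.07 ± 0.10 on the log2 scale and Ndc80 by -0.02 ± 0.16, so neither gene separated the arrays by either term.

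Within 1 Xist class the genotypes can be compared with a single array on one side. Among the Xist-high arrays, 1 Irf4 null array stood against 3 wild-type arrays, with no spread on the Irf4 null side. A call or p-value in either Xist class therefore assumes that the lone array varies like the other 3, and says nothing about stability. For the members, fold changes and ranks alone follow. The median log2 fold change of the members among the Xist-high arrays was 0.44, 38 of 41 were positive, and Nusap1 had 0.97. Irf4 null array 1 lay above all 3 Xist-high wild-type arrays for 31 of 41 members, where 33.1% of all genes did so, and below all 3 for none, where 27.1% did so. Among the Xist-low arrays, 3 Irf4 null arrays stood against 1 wild-type array. There the median was 0.17, and 31 members were positive and 10 negative. Over all probe sets 0.229% were called higher there, a share that rests on the same assumption about the lone array. Calls of members are not read in either class. Wild-type array 2 lay inside the range of the 3 Irf4 null arrays for 17 members, below it for 20 and above it for 4, while over all genes these shares were 42.2%, 31% and 26.9%.

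Whether the genotype difference itself depends on Xist class was fitted as an interaction by limma. Only 1 Irf4 null array is Xist-high and only 1 wild-type array is Xist-low. The fit therefore cannot decide this question, and effect sizes alone are given. The log2 fold change among Xist-high arrays minus that among Xist-low arrays ran from -0.318 for Cenpe to 0.938 for Plk1 over the members.

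**Figure D3:**
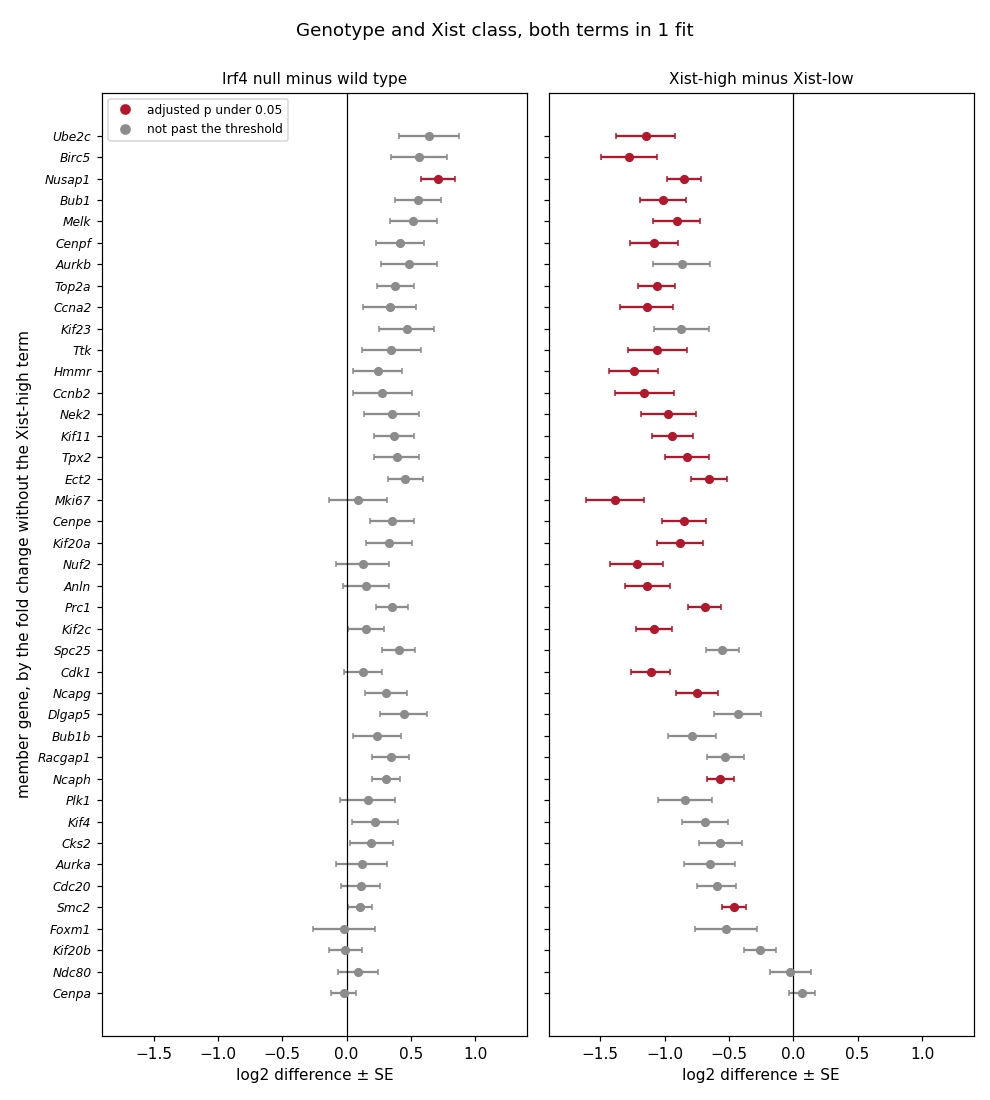
Log2 difference ± SE of each of the 41 mitosis and spindle genes from the fit with both terms over 8 arrays, Irf4 null minus wild type in the left panel and Xist-high minus Xist-low in the right panel; red points passed an adjusted p of 0.05 and grey points did not. In the left panel Nusap1 alone is red, and in the right panel 26 genes are red and all of these lie below 0.

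The count of calls between genotypes rested on 1 array more than on any other. Without wild-type array 2, 33 of 41 members were called higher in Irf4 null, beside 4.8% of probe sets called higher and 3.24% lower, and the 8 others were Aurka, Kif20b, Kif2c, Cenpa, Ndc80, Mki67, Smc2 and Foxm1. The median fold change was then 1.01 on the log2 scale, but the wild-type arrays left are all Xist-high and 3 of 4 Irf4 null arrays are Xist-low, so genotype and Xist class nearly coincide. Without Irf4 null array 1, 6 members were called higher, beside 1.62% of probe sets called higher and 1.22% lower: Cenpe, Nusap1, Prc1, Cenpf, Spc25 and Ect2. Leaving out any of the other 6 arrays left 0 members called by limma, with 18 to 22 at an unadjusted p under 0.05, beside 1.05% to 1.5% of probe sets called higher.

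Markers of other blood cells were higher on the same arrays as the mitosis genes. Over 63 markers of erythroid cells, neutrophils, monocytes, platelets, T cells, NK cells and dendritic cells, the mean log2 level relative to the wild-type mean was -0.07, 1.04, 1.28 and 0.46 on Irf4 null arrays 1 to 4 and -0.45, 0.98, -0.29 and -0.25 on wild-type arrays 1 to 4. Their summed signal was 45440 to 139600 in Irf4 null and 33550 to 123800 in wild type, and 2 of 61 tested markers, Prf1 of NK cells and Ppbp of platelets, were called higher in Irf4 null, a share near the 2.01% of all probe sets. By Xist class, 22 of the 61 were called lower on Xist-high arrays, beside 1.86% of probe sets. The part of these cells in the levels of the mitosis genes was not tested, and in bulk RNA fewer cells of a type and less RNA per cell cannot be told apart.

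The neutrophil markers differed most. Their summed signal over 13 genes was 11950 on Irf4 null array 1 and 22570 to 79550 on the other Irf4 null arrays, against 57950 on wild-type array 2 and 6100 to 7604 on the other wild-type arrays. S100a8, a neutrophil calcium-binding protein, had 4969, 30010, 16850 and 7677 in Irf4 null, against 3586, 21720, 2580 and 2917 in wild type, and its partner S100a9 had 2820, 22880, 12120 and 6560 in Irf4 null, against 2482, 15380, 1651 and 2057 in wild type. By Xist class 9 of 13 neutrophil markers were called lower on Xist-high arrays, and between genotypes 0 of 13 were called or reached an unadjusted p under 0.05 (limma). The summed neutrophil signal was highest on Irf4 null array 2, whereas the members averaged highest on Irf4 null array 3.

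NK cell markers, summed over 7 genes, had 4072 to 12900 in Irf4 null and 2334 to 7173 in wild type, and 5 of 7 were called lower on Xist-high arrays. Between genotypes all 7 had an unadjusted p under 0.05 and 1, Prf1, was called higher, and with the Xist term 2 were called higher, Prf1 and Gzma (limma). Gzma, the granzyme of killer cells, had 1805, 5046, 7410 and 4507 in Irf4 null, against 1051, 3630, 1108 and 1090 in wild type, and Klrd1, a receptor subunit of these cells, had 732 to 1547 in Irf4 null and 454 to 1285 in wild type. Monocyte and macrophage markers summed to 15190 to 30950 in Irf4 null and 10840 to 35380 in wild type, with 6 of 10 called lower on Xist-high arrays. Between genotypes none was called by limma, and 6 fold changes were positive and 4 negative. Those of C1qa, C1qb and C1qc were -0.51, -0.24 and -0.73 on the log2 scale. Of the 2 brightest, Csf1r, the receptor for a macrophage growth factor, had 2563 to 7820 in Irf4 null and 2085 to 9507 in wild type, and Lyz2, a lysozyme, had 11110 to 20500 in Irf4 null and 7038 to 21000 in wild type. T cell markers summed to 1071 to 7605 in Irf4 null and 870 to 1713 in wild type. Of 8 tested, 1 was called lower on Xist-high arrays (limma), beside 1.86% of probe sets. Their mean level relative to the wild-type mean was 0.28 on wild-type array 2 and 0.32 on wild-type array 3. Cd4 of helper T cells was near 0 on all arrays, at 6.86 to 12.2, whereas Cd3d and Cd3g, subunits of the T cell receptor complex, were at 223 to 2516 and 255 to 1430 in Irf4 null and at 141 to 332 and 116 to 335 in wild type. Dendritic cell markers summed to 582 to 1205 in Irf4 null and 444 to 1021 in wild type. Of 4 tested, 1 was called lower on Xist-high arrays (limma). The integrin Itgax had 317 to 531 in Irf4 null and 177 to 401 in wild type. The chemokine receptor Ccr9 had 112 to 493 in Irf4 null and 102 to 330 in wild type.

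Erythroid and platelet markers followed the members less closely. Erythroid markers summed over 15 genes to 7064 to 29820 in Irf4 null and 6301 to 17390 in wild type, and 0 of 14 tested were called or reached an unadjusted p under 0.05 between genotypes, and 0 were called by Xist class (limma). Irf4 null array 4, with a high level of mitosis genes, had the lowest erythroid level of the 8 arrays, at -0.52 relative to the wild-type mean, below Irf4 null array 1 at -0.36. The alpha globin Hba-a1 was near 0 on all arrays, at 4.06 to 9.63, and below the limit for dim probe sets. The beta globins Hbb-b1 and Hbb-bt had no probe set that names them alone. The carbonic anhydrases Car2 and Car1 had 2966 to 10760 and 1476 to 2883 in Irf4 null, against 2465 to 7111 and 1534 to 4449 in wild type. With the erythroid level as a covariate, 3 members were called higher in Irf4 null (Nusap1, Ube2c and Spc25; 2.1% of probe sets) and the median log2 fold change over all members was 0.645. Platelet markers summed to 3537 to 5510 in Irf4 null and 2320 to 3147 in wild type, with the chemokines Ppbp and Pf4 at 1860 to 3473 and 797 to 1148 in Irf4 null, against 1123 to 1654 and 571 to 835 in wild type, and they were highest on Irf4 null array 1. With the mean of all 63 markers as a covariate, Nusap1 was the sole member called (0.685; limma, adjusted p = 0.0331; 1.5% of probe sets) and the median of the members was 0.31.

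Markers of B cell stages had other patterns. Mature B cell markers varied over a narrow range, -0.26 to 0.10 relative to the wild-type mean, and were lowest on wild-type array 2. Ms4a1, which encodes CD20, had 24130 to 25110 in Irf4 null and 23060 to 26120 in wild type, and Cd79b, a subunit of the B cell receptor, had 19330 to 23770 in Irf4 null and 21290 to 24860 in wild type. Germinal centre B cell markers summed over 6 genes to 2478 to 2735 in Irf4 null and 4124 to 4917 in wild type, and 2 of 6, Bcl6 and Rgs13, were called lower in Irf4 null. Their mean level was -1.12, -0.76, -0.955 and -0.57 on Irf4 null arrays 1 to 4 and -0.09, 0.325, -0.16 and -0.07 on wild-type arrays 1 to 4, so each genotype held its own range and wild-type array 2 was the highest. Bcl6, the repressor that defines germinal centre cells, had 2174, 2112, 2102 and 2115 in Irf4 null, against 3754, 3604, 3320 and 3948 in wild type (log2 fold change -0.775 ± 0.07, SE; adjusted p = 0.00028 by limma), while the death receptor Fas had 80.2 to 311 in Irf4 null and 192 to 305 in wild type. Plasma cell markers summed to 8442 to 9861 in Irf4 null and 10490 to 25050 in wild type. Jchain, the joining chain of secreted antibodies, had 29.8 to 58.9 in Irf4 null and 2222 to 12830 in wild type, with the highest value on wild-type array 2, and Xbp1, a factor of the secretory pathway, had 8084 to 9564 in Irf4 null and 7600 to 11040 in wild type. Precursor B cell markers summed over 5 genes to 255 to 447 in Irf4 null and 202 to 573 in wild type. The sum was highest on wild-type array 2, and at most 337 on the other wild-type arrays. Among the 5, Rag2 and Dntt lay below the limit for dim probe sets. Rag1, a recombinase subunit, had 59.0 to 199 in Irf4 null and 149 to 458 in wild type. Igll1, a surrogate light chain, had 47.0 to 103 in Irf4 null and 30.7 to 93.2 in wild type.

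**Figure D4:**
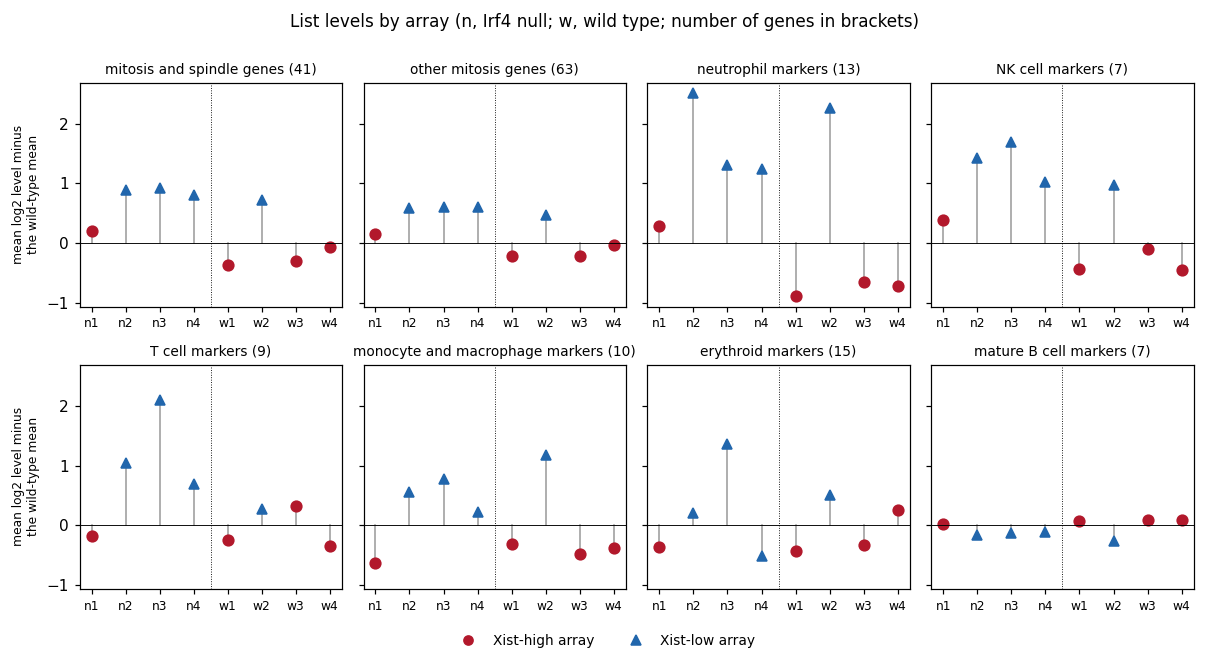
Mean level of 8 gene lists on each array, as log2(signal + 16) minus the wild-type mean of each gene, averaged over the list; n1 to n4 are Irf4 null arrays, w1 to w4 wild-type arrays, red circles Xist-high and blue triangles Xist-low arrays. Mitosis genes, neutrophil markers and NK cell markers are higher on n2, n3, n4 and w2 than on the other arrays, while mature B cell markers stay between -0.26 and 0.10.

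A broader list of 68 other mitosis genes showed the same arrangement with smaller values. Of 63 tested, 2 were called higher in Irf4 null and 1 lower, beside 2.01% and 1.51% of probe sets, with a median log2 fold change of 0.43 and 58 positive values. Cit, a kinase of the midbody, had 176, 261, 218 and 258 in Irf4 null, against 97.7, 176, 70.9 and 82.9 in wild type (log2 fold change 1.05 ± 0.24, SE; adjusted p = 0.0409 by limma). Ccnf, an F-box protein of ubiquitin ligases, had 227, 271, 220 and 314 in Irf4 null, against 126, 204, 103 and 111 in wild type (log2 fold change 0.88 ± 0.21, SE; adjusted p = 0.0436 by limma). For both genes the genotypes did not overlap. In all, 4 of the 63 (6.35%) lay higher on every Irf4 null array than on any wild-type array, beside 7.13% of all genes. For Cit the margin was narrow, 176.4 on Irf4 null array 1 over 175.7 on wild-type array 2. Without that wild-type array 30 of the 63 were called higher, beside 4.8% of probe sets. The calls of Cit and Ccnf were each lost in 15 alternative settings and that of Cdc25b in 11, of 25 or 26 run, with adjusted p-values up to 0.547, 0.69 and 0.45 (limma).

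Cdc25b, a phosphatase that activates cyclin-dependent kinases, was lower in Irf4 null, with 739, 563, 800 and 437, against 1166, 959, 1203 and 1037 in wild type. It alone of the 63 lay lower on every Irf4 null array than on any wild-type array, a pattern held by 5.71% of all genes. Its log2 fold change was -0.80 ± 0.17 (SE; limma, adjusted p = 0.0291). Zwilch, a kinetochore protein of the checkpoint, had 337, 542, 370 and 592 in Irf4 null, against 220, 348, 221 and 242 in wild type (log2 fold change 0.78 ± 0.205, SE; adjusted p = 0.0658 by limma). With the Xist term limma called 0 of the 63 between genotypes, with 22 at an unadjusted p under 0.05, beside 16.4% of all genes. Over all probe sets 1.41% were called higher and 0.947% lower in that fit. By Xist class 18 of 63 were called lower on Xist-high arrays, beside 1.86% of probe sets. On every Xist-high array, 39 of the 63 were lower than on any Xist-low array, a pattern held by 7.47% of all genes.

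Regulators of the mitotic programme, 31 of 32 tested, had a median log2 fold change of 0.05, and limma called 0 of them higher or lower, with 14 at an unadjusted p under 0.05. Tfdp1, the dimer partner of E2F factors, had 1579, 2114, 1655 and 2132 in Irf4 null, against 993, 1603, 972 and 1191 in wild type (log2 fold change 0.66 ± 0.16, SE; adjusted p = 0.0511 by limma). E2f1, an activator of S phase genes, had 154, 172, 147 and 160 in Irf4 null, against 113, 78.9, 80.1 and 124 in wild type, and every Irf4 null array lay above every wild-type array (0.62 ± 0.18 on the log2 scale; SE; limma, adjusted p = 0.0888). On wild-type array 2, where most members were high, E2f1 had its lowest value, close to that of wild-type array 3. By Xist class 2 of the 31 regulators, E2f8 and Ccne2, were called lower on Xist-high arrays (limma), beside 1.86% of probe sets. Both had their highest wild-type signal on array 2, at 437 and 604. Ccne1, cyclin E1 of the G1 to S transition, had 418, 483, 460 and 541 in Irf4 null, against 277, 432, 299 and 357 in wild type (0.47 ± 0.15; SE; limma, adjusted p = 0.117). Mybl1, a Myb factor of germinal centre B cells that is also among their markers here, had 44.6, 43.0, 33.9 and 48.5 in Irf4 null, against 78.6, 275, 86.7 and 88.1 in wild type. Its log2 fold change was -1.17 ± 0.34 (SE; adjusted p = 0.0916 by limma). Mybl1 passed the threshold with the Xist term (-1.53, adjusted p = 0.0361) and with the covariate of other cell types (-1.54, adjusted p = 0.0412 by limma). On the Xist-low arrays alone its log2 fold change was -2.34. In 21 of 25 alternatives it was not called.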

How the data were processed

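The authors deposited 1 intensity per probe set and array, on a linear scale. MAS5 made them, per the submitters' processing notes, which name no version. The mean signal without the highest and lowest 2% was 500.003 on every array, so no further normalization was applied. Array medians still ranged from 76.9 to 92.2. With a common median, 384 probe sets were called higher and 419 lower by limma, against 543 and 407. The members' median log2 fold change was then 0.67, against 0.73. Of 45101 probe sets, 34958 have 1 gene symbol in the platform annotation, 932 several and 9211 none, and 34754 symbols were matched to RefSeq genes of GRCm38.p6. No detection calls were used, and signals near background carry uncertain folds.

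After 64 control probe sets and the lowest 40% by mean log2 value (up to 5.88, a signal of 42.9) were dropped, 27022 probe sets were tested on log2(signal + 16), which understates the change of dim genes. The test was limma 3.58.1 (R 4.3.3; lmFit, then eBayes with trended variance). P-values were adjusted by Benjamini and Hochberg's method over all 27022, and a call is an adjusted p under 0.05. Standard errors come from the fit. Arrays with an Xist signal over 1000 were classed as Xist-high. The fit was tested on simulated data with the means and spreads of these probe sets, drawn independently. It called 16.4% of changes of 1.5-fold, 48.6% of 2-fold and 95.2% of 4-fold, so small changes are often missed.

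The members and lists were chosen with earlier results of these data known, so lists have counts and medians and no test. Arrays are named for the called members, the 2 with the smallest unadjusted p in each role class and the largest and smallest fold change; 4 other mitosis genes and 4 regulators by smallest p; and the 2 brightest of each marker list. Cdk1, Mki67, Kif20b, Ndc80 and Kif2c were added after their values were seen, as were the regulators E2f8 and Ccne2. Values of the markers Cd4, Hba-a1, C1qa, C1qb and C1qc are also given outside these rules. Alternatives were the added constant, the filter, normalization, variance models, weighted arrays, a replicate block, the Xist term or class, marker covariates, other probe sets, other thresholds and each array left out.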

Additional observations from a re-analysis of the deposited data

Results flagged for a closer look

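In a group of 4 arrays, an array was singled out when its gap to the nearest other array took up more of the group's range than Dixon's critical value for 4 samples, a limit that chance passes in about 1 in 20 groups. It was passed in 13 of 102 groups, 6 times by wild-type array 2 and 6 times by Irf4 null array 1. The genes share these arrays, so the 13 are not independent.

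Irf4 null array 1 was the low array for Cenpe (a signal of 280.7), Nusap1 (990.8), Prc1 (305.9) and Nuf2 (264.5), and for the mean log2 level relative to wild type of the 41 members (0.201) and of the 63 other mitosis genes (0.154). Wild-type array 2 was the high array for Melk (174.2), Kif2c (365.0), Ncapg (481.5), Ncaph (1034), Anln (470.8) and the regulator Mybl1 (274.7). Kif20b was lowest on wild-type array 1 (554.4). Irf4 null array 1 is the Xist-high array of its genotype and wild-type array 2 the Xist-low array of its genotype, and the part of Xist class or of other cell types in these values was not tested.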

How the results depend on the processing

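Lists and the Xist classes were set with earlier results known, sex is read from the data, single arrays carry the comparison in each Xist class, and dim probe sets have uncertain folds. Against 1 member called higher, 0 were called with no filter, no variance trend or robust variance. None was called with means over all probe sets of a gene or at an adjusted p of 0.01. Where 1 probe set stood for a gene, 25 to 30 members had an unadjusted p under 0.05 in these settings (limma). The count was 20 with array weights, beside 3.7% of probe sets called higher, and 3 with the erythroid covariate, beside 2.09%. It was 6 at an adjusted p of 0.1, where 918 probe sets were called higher, against 543 at 0.05. With 1 array left out it was 0 to 33, beside 1.05% to 4.8% of probe sets. The count of members called lower was 0 in every alternative run. The members' median log2 fold change was 0.172 on the Xist-low arrays.

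With the replicate number as a block, 10 members and 14 other mitosis genes were called higher, beside 690 probe sets (2.55%). The numbers share no stated source. Once each genotype's mean was subtracted from every probe set, same-numbered arrays correlated at 0.237, 0.277, -0.03 and -0.081 for numbers 1 to 4. Irf4 null arrays 1 and 2 matched the wild-type array of their own number best, and Irf4 null arrays 3 and 4 did not. The arrays numbered 1 are both Xist-high and those numbered 2 both Xist-low. Whether the numbers pair the samples cannot be told from these values.

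Against 2 other mitosis genes called higher, 0 were called with no filter, no variance trend, the Xist-high term or either covariate. None was called at an adjusted p of 0.01, and 1 was called with the lowest 60% dropped or gene means. The count was 24 with array weights, beside 3.7% of probe sets called higher. It was 11 at an adjusted p of 0.1, where 918 probe sets were called higher. With 1 array left out it was 0 to 30, beside 1.05% to 4.8% of probe sets. Against 1 called lower, 0 were called with no variance trend, the Xist-high term, the covariate of other cell types or 0.01. With 1 array left out the count was 0 to 1.

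Over all probe sets, 543 were called higher and 407 lower. With no variance trend these were 355 and 200, with array weights 1001 and 745, on the Xist-high arrays 193 and 129, on the Xist-low arrays 62 and 55, at an adjusted p of 0.01 213 and 117, and at 0.1 918 and 772. They were 256 lower with the Xist-high term and 258 lower with the covariate of other cell types, and 283 to 1297 higher and 183 to 875 lower with 1 array left out.

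The sign of the log2 fold change turned for 15 values, none of them called. On the Xist-low arrays alone it was -0.081 for Cdk1, -0.113 for Aurka, -0.306 for Plk1, -0.032 for Ccnb2, -0.043 for Cdc20, -0.001 for Kif4, -0.199 for Ndc80, -0.319 for Nuf2 and -0.069 for Anln. With the Xist-high term it was -0.009 for Kif20b and -0.019 for Foxm1, and on the Xist-high arrays -0.166 for Kif20b and -0.12 for Foxm1. Mki67 had -0.007 with the covariate of other cell types, and Cenpa 0.205 with gene means. The cause was not tested.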
